A study of Mus musculus with 12 samples.

Results

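The silent germ cell genes are 112 genes that gave signal in fetal female primordial germ cells (PGCs) and none above background in mouse embryonic fibroblasts (MEFs), whether or not the MEFs had been treated to open germ cell genes. They were chosen from 19711 named genes on the arrays. A gene was taken if no probe of it was flagged as well above background on any of the 9 arrays of control, OS-treated and OCKS-treated MEFs, and if its brightest probe was so flagged on all 3 PGC arrays with a mean level of -4 or more. The level is the log2 of the background-subtracted signal minus the 75th percentile of the array, so that 0 marks that percentile. A limit of 300 genes was not reached. Because the values on all 12 arrays chose these genes, their levels are a description and are not tested.

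RNA came from untreated (control) MEFs, from 2 sets of treated MEFs taken on day 4 and from PGCs at E15.5, each as 3 biological replicates, and was read on 12 one-colour arrays. The treated sets received either OS or OCKS, and otherwise the same agents, chem + VA5 + Dnmt1-KD. OS stands for expression plasmids of Oct4 and Sox2, and OCKS for a tandem construct of Oct4, c-Myc, Klf4 and Sox2. Chem stands for tranylcypromine, BIX-01294 and DZNep, inhibitors of histone-modifying enzymes. VA5 is valproic acid with an inhibitor of the TGF-beta receptor ALK5, and Dnmt1-KD is an siRNA against the maintenance DNA methyltransferase. The MEFs were male and carried the Vasa::RFP and Oct4_delta_PE-GFP transgenes on a C57BL6/J background. The PGCs were female, came from genital ridges, and carried Oct4_delta_PE-GFP in a cross of MCH with C57BL6/J. Sex, strain, stage and cell type therefore differ together between PGCs and MEFs and cannot be told apart. Transfection reaches only some of the cultured cells, and in bulk RNA a gene used by few cells cannot be told apart from one used weakly by many.

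Germ cells of the fetal ovary leave mitosis and enter meiotic prophase, in which chromosomes pair, are joined by the synaptonemal complex and exchange DNA through programmed breaks. The same cells guard the genome with piRNAs, small RNAs that silence transposons, and begin to use transcription factors of the oocyte. Many such genes are kept shut in somatic cells by DNA methylation and repressive histone marks, and a number of them have CpG-rich start regions on which DNA methylation acts. The promoters of 4 silent genes and of 2 genes that did come on are printed here because they differ widely in CpG content. Each runs from 250 bases before to 50 bases after the transcription start, 5′ to 3′ on the strand of the gene, from RefSeq on GRCm38.p6, with every CpG in capitals. Of the silent genes, Tdrd5 is at chr1:156303299-156303598 (minus strand), Meioc is at chr11:102665335-102665634 (plus strand), Dmc1 is at chr15:79605060-79605359 (minus strand) and Tex16 at chrX:112093270-112093569 (plus strand). Of the genes that came on in treated MEFs, Dazl is at chr17:50293571-50293870 (minus strand) and Sycp1 at chr3:102936051-102936350 (minus strand).
Tdrd5: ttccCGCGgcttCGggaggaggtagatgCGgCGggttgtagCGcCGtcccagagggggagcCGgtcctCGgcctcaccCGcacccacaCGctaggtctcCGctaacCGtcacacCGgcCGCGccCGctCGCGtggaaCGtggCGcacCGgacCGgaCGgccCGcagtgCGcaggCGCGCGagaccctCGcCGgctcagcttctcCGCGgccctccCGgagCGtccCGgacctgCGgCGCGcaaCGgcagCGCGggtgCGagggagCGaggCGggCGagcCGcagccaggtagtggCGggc
Meioc: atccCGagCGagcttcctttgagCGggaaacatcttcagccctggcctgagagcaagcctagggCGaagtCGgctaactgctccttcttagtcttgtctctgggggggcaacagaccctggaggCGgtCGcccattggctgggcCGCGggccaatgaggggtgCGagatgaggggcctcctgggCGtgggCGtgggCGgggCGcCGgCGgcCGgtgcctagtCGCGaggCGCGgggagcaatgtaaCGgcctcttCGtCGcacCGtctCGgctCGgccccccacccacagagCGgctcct
Dmc1: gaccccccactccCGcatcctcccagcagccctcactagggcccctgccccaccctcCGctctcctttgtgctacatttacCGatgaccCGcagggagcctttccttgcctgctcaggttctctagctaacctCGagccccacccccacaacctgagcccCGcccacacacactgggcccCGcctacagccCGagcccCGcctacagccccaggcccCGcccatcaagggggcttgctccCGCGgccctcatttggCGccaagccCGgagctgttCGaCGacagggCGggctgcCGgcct
Tex16: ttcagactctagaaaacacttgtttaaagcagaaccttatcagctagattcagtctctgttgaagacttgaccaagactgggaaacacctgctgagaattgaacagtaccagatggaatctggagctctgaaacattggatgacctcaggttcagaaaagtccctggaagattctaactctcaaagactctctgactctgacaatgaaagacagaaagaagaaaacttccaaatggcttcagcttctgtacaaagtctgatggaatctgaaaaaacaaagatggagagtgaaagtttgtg
Dazl: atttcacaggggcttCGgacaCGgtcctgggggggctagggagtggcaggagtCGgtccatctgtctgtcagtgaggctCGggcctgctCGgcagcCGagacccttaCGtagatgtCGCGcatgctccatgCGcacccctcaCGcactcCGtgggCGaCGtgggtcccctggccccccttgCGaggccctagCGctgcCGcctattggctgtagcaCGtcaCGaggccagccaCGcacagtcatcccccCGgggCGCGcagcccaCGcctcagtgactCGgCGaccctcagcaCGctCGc
Sycp1: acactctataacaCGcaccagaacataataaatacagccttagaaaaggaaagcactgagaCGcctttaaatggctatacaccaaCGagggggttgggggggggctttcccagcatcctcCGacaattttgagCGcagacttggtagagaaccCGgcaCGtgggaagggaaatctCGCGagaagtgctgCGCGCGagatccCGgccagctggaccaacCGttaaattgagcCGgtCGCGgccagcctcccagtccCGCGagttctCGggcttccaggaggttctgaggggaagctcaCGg

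Tdrd5 had 48 CpGs in these 300 bases, Meioc 28 and Dmc1 18, whereas Tex16 had 0. Dazl also had 28 and Sycp1 21. The printed genes were picked for this spread, so it is an illustration and says nothing on the silent genes as a group.

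The arrays themselves were checked before the genes were read. Each array had 43020 spots, of which 71.9% to 85.6% were flagged as well above background, with 0 saturated. Of 6 germ cell markers (Ddx4, Dazl, Mael, Sycp3, Dppa3 and Pou5f1), all 6 were above background on every PGC array, with a summed signal of 129 to 161 times the 75th percentile, against 0.131 to 0.145 in control MEFs. The 16 fibroblast markers summed to 728 to 1049 in control MEFs and to 16.9 to 17.4 in PGCs, where all 16 remained above background. Markers of other cells were above background on all PGC arrays as well, 27 of 28 for gonadal somatic cells (summed signal 34.1 to 39.6), 17 of 19 for leukocytes (17.8 to 22.9), 13 of 14 for endothelium (6.92 to 7.46), 15 of 16 for mesonephros and epithelium (4.05 to 4.84), 35 of 39 for the nervous system (22.6 to 25.7) and 13 of 18 for erythroid cells (24.8 to 29.5). Their part in the PGC signal of the silent genes was not tested. Of the Y-linked genes, Ddx3y and Uty were above background on all 9 MEF arrays and 0 of the 3 PGC arrays, and Kdm5d on 2, 2 and 3 arrays of control, OS-treated and OCKS-treated MEFs and 0 PGC arrays. Eif2s3y was above background on all 12 arrays, with a mean level of -4.34 in PGCs and 1.45 in control MEFs. Xist, which silences an X chromosome in females, was above background on 1 control array (group mean -7.52) and on all OS, OCKS and PGC arrays. Its mean was -4.49 with OS and -3.90 in PGCs, with OCKS between them, and all MEFs are labelled male. No slide carried both treated and control MEFs, so that a slide effect and the treatment cannot be told apart, while 1 slide carried 2 PGC and 2 control MEF arrays.

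On the PGC arrays the 112 genes lay between -3.95 and 6.37, with a median of -2.26. Of them 17 lay at 0 or higher, 34 between -2 and 0, and 61 below -2. The replicates were close, with a median SD of 0.14 (n = 3), and 10 genes had an SD above 0.3. On the 9 MEF arrays the same genes lay between -10.66 and -7.24 with a median of -9.43, where the lowest level flagged as well above background was -8.30 to -7.27 depending on the array. The lowest PGC value of a gene stood above its highest MEF value in every case, by at least 3.72, which the rule largely fixes. These levels belong to different probes and give no ratio between genes.

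**Figure D1:**
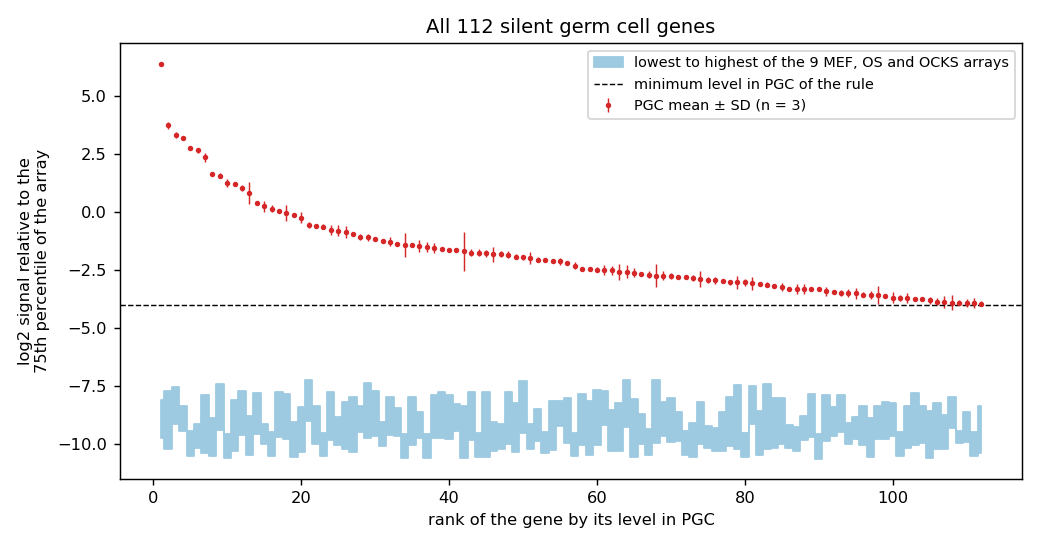
Level of each of the 112 silent germ cell genes (y axis, log2 signal relative to the 75th percentile of the array) against its rank in PGC (x axis). Points are PGC means with SD (n = 3), bars span the 9 MEF arrays, and the dashed line is the minimum of -4; PGC means run from 6.37 to -3.95 while all MEF values stay between -10.66 and -7.24.

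Since a dim probe has no measured level, the difference from MEFs is given as a lower bound: the PGC mean against, for each MEF array, the higher of the gene's own level and the lowest level flagged on that array. PGC signal was at least 14.0-fold to 17907-fold higher than in OS-treated MEFs over the 112 genes (median 45.2) and at least 11.8-fold to 15083-fold higher than in OCKS-treated MEFs (median 38.1). On the slide that held both PGC and control MEF arrays the median bound was 5.98 on the log2 scale, against 5.65 over all arrays. The rule used this contrast, so no p-value is given. Over all 17357 genes tested between PGCs and control MEFs, 31.8% rose and 25.2% fell (limma), and the share of rises among the calls, 55.8%, was 43.5% with median scaling and 44.3% with spike-in scaling.

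Syce3, a central element protein of the synaptonemal complex, had the highest level of the 112 genes. Its PGC arrays read 6.43, 6.32 and 6.36. Control MEFs read -9.60, -9.19 and -8.61, OS-treated MEFs -9.17, -8.90 and -9.48, and OCKS-treated MEFs -8.10, -8.80 and -9.77. The MEF groups overlapped throughout, and the PGC signal was at least 17907-fold that of OS-treated MEFs. Before scaling, the 3 PGC spots measured 1.31e+05, 1.69e+05 and 1.65e+05, and the 9 MEF spots at most 6.96.

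Meioc and Ccnb3 act at the entry into and progress through meiosis: Meioc keeps transcripts of meiotic prophase in place, and Ccnb3 is a cyclin of the oocyte divisions. Meioc read 3.86, 3.58 and 3.76 in PGCs. It read -9.21, -9.62 and -10.22 in control MEFs, -8.48, -7.75 and -8.53 in OS-treated MEFs, and -8.31, -8.29 and -9.34 in OCKS-treated MEFs. The OS values lay above all 3 control values and the OCKS values overlapped them, but none was well above background, so that no fold is given between the MEF groups. Ccnb3 read 3.19, 3.27 and 3.16 in PGCs and from -9.48 to -8.38 over the 9 MEF arrays, where the groups overlapped.

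Dmc1, Iho1 and Cntd1 belong to meiotic recombination. Dmc1, the recombinase of meiosis, read 3.41, 3.20 and 3.37 in PGCs. Control MEFs read -9.15, -8.52 and -8.56, OS-treated MEFs -7.81, -8.38 and -7.76, and OCKS-treated MEFs -8.05, -8.59 and -7.57. The OCKS range overlapped that of control MEFs, and the OS values stood above all 3 of them, again below the flag. Its other 2 probes were also above background on all 3 PGC arrays and on no MEF array, with PGC means of 2.86 and 2.71.

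Iho1, which is needed to make the DNA breaks that start recombination, read 2.49, 2.14 and 2.48 in PGCs. It read -9.43, -10.37 and -10.42 in control MEFs, -8.25, -7.90 and -8.65 in OS-treated MEFs, and -8.18, -8.16 and -8.69 in OCKS-treated MEFs. All 6 treated values lay above all 3 control values, again below the flag. Cntd1, which helps recombination sites mature into crossovers, read -2.05, -2.24 and -2.07 in PGCs. Its treated values ran from -9.28 to -8.18 and its control values from -10.30 to -9.29.

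Iho1 and Cntd1 were the 2 silent genes that passed a weaker flag, positive and different from the local background, on all 6 treated arrays and on no control array. The share of all genes with this pattern was not counted, so the pattern is not read as a response to treatment. That flag asks less than "well above background". Over the 112 genes it was set for 25.9%, 58.9% and 68.8% on the control arrays, 42.0%, 51.8% and 47.3% on the OS arrays, and 65.2%, 38.4% and 38.4% on the OCKS arrays. Among all genes below the stronger flag it was set for 51.3% to 65.1% on the same 9 arrays. The share among the silent genes was the higher on MEF 2, MEF 3 and OCKS 1 (56.2%, 61.9% and 65.1% of all such genes) and the lower on the other 6 arrays. Meioc, Dmc1, Hes3, Rimklb, Syt9, Sun3 and Bend7 passed it on all 9 arrays, and 10 genes on none, among them Figla, Magea4, Tmprss12, Cst12 and St8sia3.

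Tdrd5, Tdrd12, Tdrd1 and Henmt1 act in the piRNA pathway. The Tudor domain proteins bind the PIWI proteins that carry piRNAs, and Henmt1 methylates the ends of these RNAs. Tdrd5 read between 0.96 and 1.19 on the 3 PGC arrays. Its control MEF values were -7.87, -7.71 and -8.14, the OS values -9.63, -9.51 and -9.55, and the OCKS values -9.55, -9.15 and -9.29. Here the control arrays stood above all 6 treated arrays, the opposite of Iho1, but none was flagged. This is likewise not read as a response to treatment.

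Tdrd12 read 0.35, -0.21 and -0.31 in PGCs and from -9.80 to -7.85 over the MEF arrays. Henmt1 read -2.01, -1.79 and -1.98 in PGCs, and Tdrd1 -3.70, -3.54 and -3.46. Tdrd1 was among the lower of the 112, with at least 18.3-fold more signal in PGCs than in OS-treated MEFs. The second probe of Tdrd5 and that of Henmt1 were above background on all 3 PGC arrays, with means of 0.41 and -5.52.

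Figla and Nobox are transcription factors of the oocyte, where Figla turns on the zona pellucida genes and Nobox the genes of follicle formation. Figla read 2.77, 2.55 and 2.65 in PGCs and from -10.21 to -9.16 over the 9 MEF arrays. It passed not even the weaker flag on any of them. Nobox read -0.98, -0.55 and -0.77 in PGCs and from -9.85 to -7.76 over the MEF arrays. Other homeobox genes among the 112 were Esx1, Evx1, Hoxd1, Rhox11 and Rhox12, and with Nobox these 6 had PGC means from -2.85 to -0.76.

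**Figure D2:**
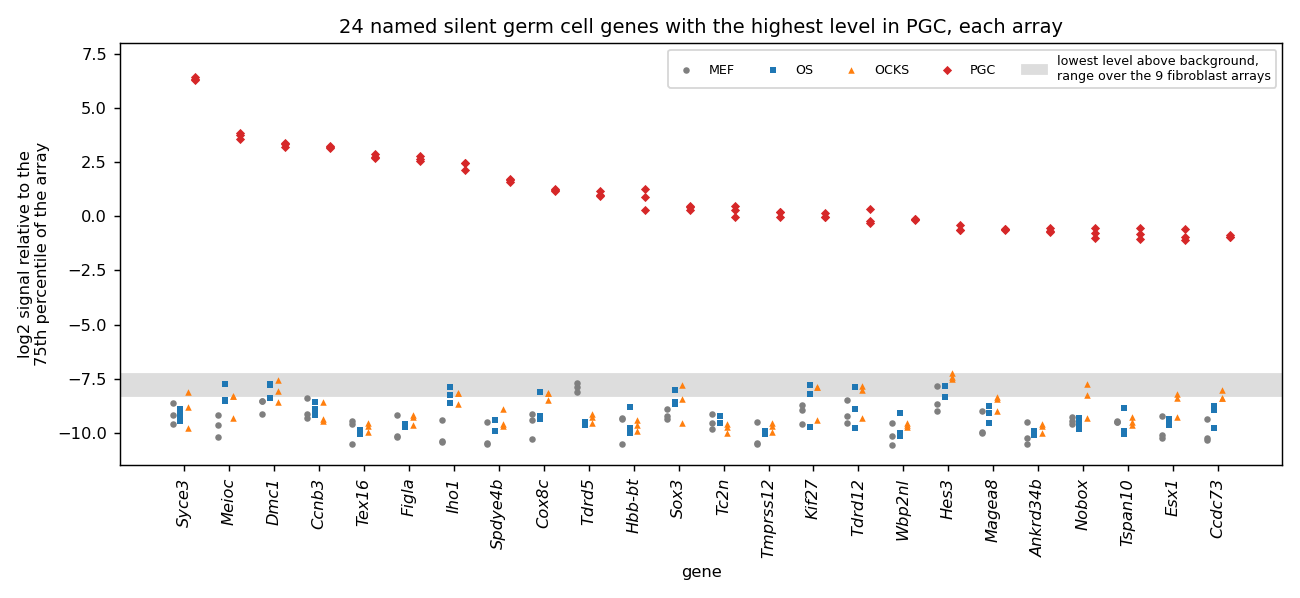
Level on each array (y axis, log2 signal relative to the 75th percentile of the array) of the 24 named silent genes with the highest level in PGC (x axis). Marks are single arrays of MEF, OS, OCKS and PGC, and the grey band is the range of the lowest level above background, -8.30 to -7.27; every PGC mark lies well over the band, and Tdrd5 differs from Iho1 in which MEF group lies nearest to it.

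The X chromosome held 15 of the 112 silent genes (13.4%), against 764 of all 19711 genes (3.88%). They included Ccnb3, Tex16, Sox3, Esx1, the Magea genes 3, 4, 5 and 8, and the homeobox genes Rhox11 and Rhox12. The Magea family is the mouse counterpart of the melanoma antigen genes, which are used in the germ line and in tumours. Magea8 read -0.58, -0.58 and -0.64 in PGCs, and the PGC means of Magea3, Magea5 and Magea4 were -1.62, -1.83 and -2.71. Their probes may share signal, since these genes are near copies of each other, and the same holds for the Speer4, Rhox and globin genes. The X-linked share was 32.4% (12 of 37) among germ cell genes that came on in all 6 treated arrays. It was 18.6% (8 of 43) among those that came on in 1 to 5 of them, so that X-linked genes were found in each class. PGCs were female and MEFs male, and the part of this in the X-linked share was not tested. Chromosome 5 also held 15 of the 112 genes (13.4%), against 5.74% of all genes.

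Neighbouring genes accounted for few of the 112. On the RefSeq gene order, Magea3, Magea8 and Magea5 followed each other, as did Rhox11 and Rhox12, and Tdrd1 and Vwa2, with no other gene of the arrays between them. Tex16 read 2.87, 2.70 and 2.72 in PGCs and from -10.52 to -9.47 on the MEF arrays. The control MEF values spanned the whole of that range, from -10.52 to -9.47, and the treated values lay inside it. Sox3, an X-linked transcription factor of the SoxB1 group, read 0.29, 0.47 and 0.42 in PGCs.

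Not every gene of the 112 is known for germ cells. Of them 19 stood on lists of germ cell genes, 26 on any of 17 lists, and 86 on none. On the list of haploid sperm genes were Akap3, an anchoring protein of the sperm tail, Cabs1, a calcium-binding protein of spermatids, and Tssk3, a testis-specific kinase, with PGC means of -1.28, -1.46 and -3.93. Outside the lists were further genes that carry testis or cilium functions, such as, with PGC means in brackets, Cox8c (1.22), a testis form of a respiratory chain subunit, Kif27 (0.04), a kinesin of motile cilia, Wbp2nl (-0.14), a protein of the sperm head, and Dnah5 (-3.32), a dynein of cilia. Genes of liver metabolism and plasma proteins were there as well, such as Abcc2 (-2.33), C8b (-2.46), Bhmt2 (-3.11) and F12 (-3.92). These were named after their values were seen.

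The 112 also hold 1 gene each of the lists of gonadal somatic cells and of the nervous system, and a marker of blood cells, which a genital ridge contains. Hbb-bt, an adult beta-globin, read 0.89, 1.26 and 0.31 in PGCs, and its SD of 0.48 was among the largest. Beside it, the summed signal of the 18 erythroid markers was 24.8 to 29.5 times the 75th percentile in PGCs, 10.1 to 12.5 in control MEFs, at least 21.9 in OS-treated and 19.3 to 23.9 in OCKS-treated MEFs. The part of such cells in its signal was not tested. Tcl1, a cofactor of the kinase Akt used in pluripotent cells, had a PGC mean of -2.05.

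Serpina3a varied most between PGC arrays, with -1.31, -1.13 and -2.68 (SD 0.85). Cst12 (SD 0.51) and Adamts19 (SD 0.51) followed. Of the 112 genes 16 had several probes, with 19 probes beside the brightest. Of these 19, 18 were above background on all 3 PGC arrays and 1, of Dao, on none. Where the genes were chosen with 1 PGC array left aside, all 111, 110 and 112 genes so chosen were above background on that array.

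The silent genes were set against other germ cell genes that control MEFs did not use. Of 12504 genes above background on all 3 PGC arrays at -4 or more, 192 (1.54%) were silent on the 3 control arrays. The others, called above background in control MEFs, had a probe flagged on at least 1 control array. Some lay near the lowest flagged level there, such as Sycp3 (mean -7.67) and Mael (-7.73), each flagged on 2 control arrays. Of these 192, 112 (58.3%) stayed silent on all 6 treated arrays, 43 (22.4%) came above background on 1 to 5 of them, and 37 (19.3%) on all 6. These percentages are also the background for the lists.

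**Figure D3:**
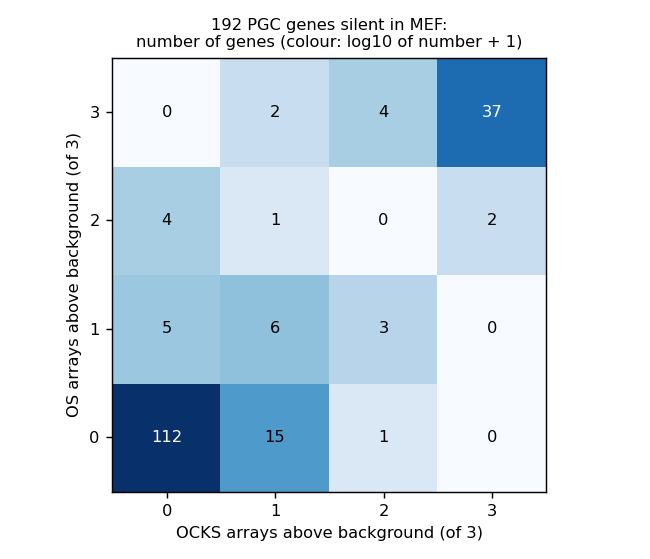
The 192 PGC genes silent in control MEFs, counted by the number of OCKS arrays (x axis) and OS arrays (y axis) on which they were above background, with the colour as log10 of the number plus 1. The counts gather at 0 and 0 (112 genes) and at 3 and 3 (37 genes), and 0 genes were on in all arrays of a single treatment alone.

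Arrays that did not take part in a choice were read in turn. Chosen on control, OS and PGC arrays alone, 128 genes were silent, of which 112 were silent on all 3 OCKS arrays, 15 were above background on 1, 1 on 2 and 0 on 3. Chosen without the OS arrays, 121 genes were silent, of which 112 were silent on all 3 OS arrays, 5 were above background on 1, 4 on 2 and 0 on 3. No gene therefore came on throughout a treatment while silent throughout the other. Array OCKS 1 alone carried 13 genes above background on no other MEF array, such as Nefh (-7.85), against 0 to 2 for each of the other treated arrays. Without OCKS 1 the silent genes numbered 125.

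Among germ cell genes of the same processes, some stayed silent and others came on. The flags on the control and treated arrays placed each gene in its class, so the values are a description with no test. Of 15 genes of the synaptonemal complex and chromosome axis seen in PGCs, 12 were above background on some or all control arrays already. Syce3 stayed silent, and Sycp1 and Hormad1 came on in all 6 treated arrays. Sycp1, which forms the transverse filament of the complex, read -5.79, -4.87 and -4.51 in OS-treated MEFs and -4.37, -5.81 and -5.59 in OCKS-treated MEFs, against 5.11, 4.80 and 4.93 in PGCs. That was at least 7.47-fold above control MEFs with OS and 6.49-fold with OCKS. Of 30 recombination genes seen in PGCs, 25 were above background on some or all control arrays. Dmc1, Iho1 and Cntd1 stayed silent, Tex11, an X-linked meiotic gene, came on, and Majin, which tethers telomeres, was flagged on 2 OCKS arrays.

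Of 20 piRNA pathway genes seen in PGCs, 13 were above background on some or all control arrays. Tdrd1, Tdrd5, Tdrd12 and Henmt1 stayed silent, and Mov10l1, Asz1 and Rnf17 came on. Mov10l1, a helicase of piRNA production, read -4.54, -4.09 and -3.30 in OS-treated and -3.20, -3.99 and -3.70 in OCKS-treated MEFs. That was at least 15.8-fold above control MEFs with OS and 20.05-fold with OCKS. Among genes of germ cell identity, Tex16 stayed silent, while 7 came on, among them Tex13b and Dazl. Dazl was at least 36.3-fold above control MEFs with OS and 29.6-fold with OCKS. Of the 20 oocyte genes seen in PGCs, 18 were above background on some or all control arrays, and Figla and Nobox, the other 2, stayed silent.

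**Figure D4:**
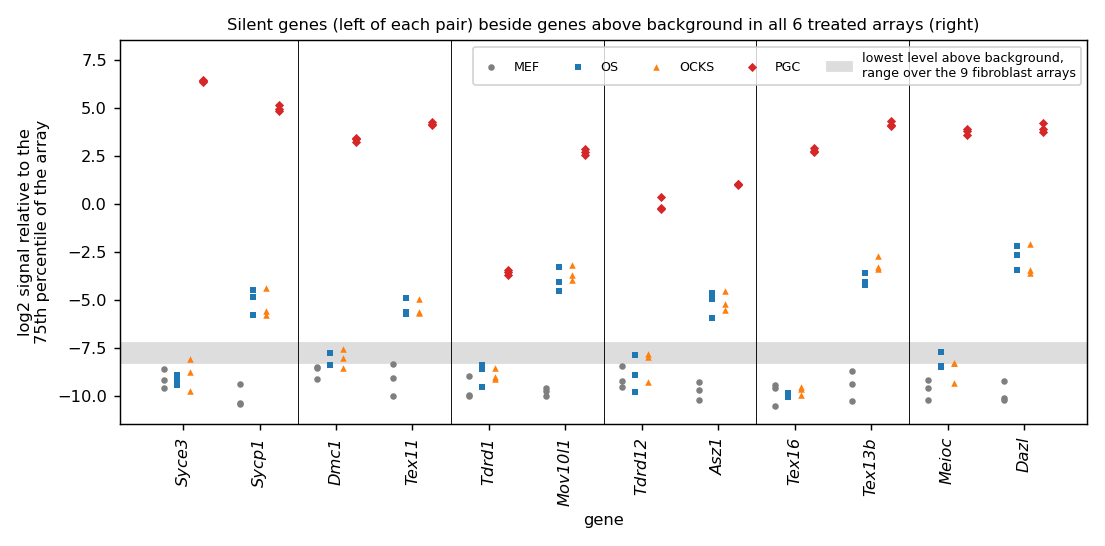
Levels on each array (y axis, log2 signal relative to the 75th percentile of the array) of 6 silent genes, each beside a germ cell gene that came on in all 6 treated arrays (x axis, in pairs chosen after their values were seen). Treated MEFs lie within or under the grey band of lowest levels above background, -8.30 to -7.27, for the left gene of each pair and over it for the right gene.

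Over all 8 lists of germ cell genes, 217 of 253 genes had a probe and 160 were seen in PGCs. Of these 160, 123 were above background on some or all control arrays, 19 stayed silent, 4 came on in some and 14 in all 6 treated arrays. Silent genes thus made up 19 of the 37 listed genes that control MEFs did not use, beside 58.3% of all such genes. The 19 were untested between treated and control MEFs, since they were above background in neither group.

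Of the listed genes that could be tested, 56 of 145 rose and 14 fell with OS, and 52 of 143 rose and 13 fell with OCKS (limma, adjusted p under 0.001 and at least 2-fold), beside 10.7% of 16257 and 11.2% of 16151 genes that rose. Where a gene had to be above background on all arrays of both groups, 21 rose and 12 fell with OS, and 18 and 10 with OCKS. Over all genes, 1458 then rose and 1941 fell with OS, and 1514 and 1966 with OCKS. The numbers tested in this way were not recorded, so no shares are given. Genes outside that filter entered the test through the arrays of 1 group alone. Over the 145 and 143 listed genes, without that filter, the median change was 0.25 and 0.38 on the log2 scale, beside -0.21 and -0.19 over all genes tested. By list, 9 of 13 synaptonemal complex genes and 11 of 16 piRNA genes rose with either treatment, and 4 of 27 and 4 of 26 oocyte genes with OS and OCKS. Of recombination genes 6 of 22 and 4 of 21 rose with OS and OCKS, and of X-linked genes 18 and 16 of 33. With either treatment, 10 of 24 germ cell identity, 3 of 16 germline chromatin and 1 of 5 meiotic entry genes rose. With scaling to 8 spike-in probes, rises made up 87.2% of all calls with OS and 66.4% with OCKS, in place of 44.5% and 43.4%. Between OCKS-treated and OS-treated MEFs, 0 of 15699 genes passed in limma, with 2906 at an unadjusted p under 0.05.

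**Figure D5:**
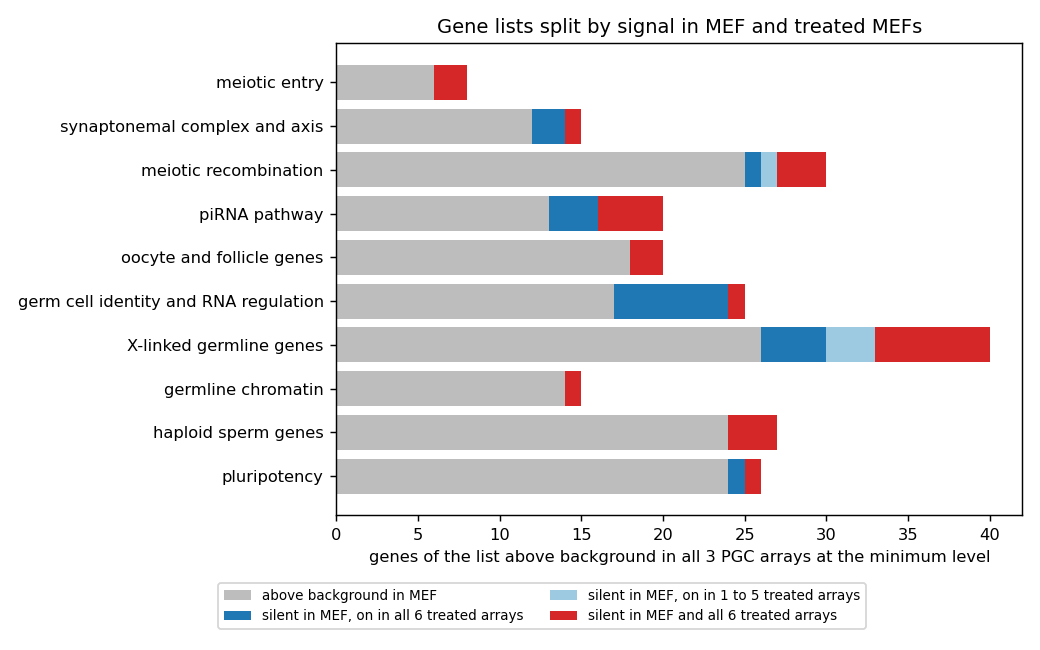
Number of genes seen in PGCs (x axis) in each of 8 germ cell lists and the lists of haploid sperm and pluripotency genes (y axis), split by signal in control and treated MEFs. Red bars are the silent genes, 7 of 40 for X-linked germ cell genes and 4 of 20 for the piRNA pathway.

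Promoters were found for 97 of the 112 silent genes, 28 of the 37 that came on in all 6 treated arrays and 9903 of the 12312 PGC genes above background in control MEFs. CpG content was taken as the observed over expected CpG number, for the richest promoter of a gene. Its median was 0.48 for the silent genes, 0.59 for those that came on and 0.79 for those above background in control MEFs, beside 0.66 over 15681 genes of the arrays. A ratio above 0.6 was found in 37.1% of the silent genes and 46.4% of those that came on. Among the silent genes, Rimklb (1.32), Fam169a (1.29) and Tdrd5 (1.11) were highest, and Tex16, Magea3, Magea5, Cabs1, Akap3, Speer4e and Olfr205 had 0 CpGs. With 28 and 31 genes in the smaller classes these shares are descriptions. No promoter could be counted for 15 silent genes and 9 of those on in all 6 treated arrays.

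Short motifs were searched in the same promoters on both strands. CACGTG, the E-box bound by Max and its partners, was in 8 of 97 silent genes (8.25%) and 6 of 28 that came on (21.4%), beside 8.62% over the genes of the arrays, 10.5% over PGC genes above background in control MEFs, and 7.15% of all 32851 promoters. Tdrd1, Cntd1 and Esx1 were among the silent genes that had it. GCGGGA, a core of E2F sites, was in 17 of 97 (17.5%) and 10 of 28 (35.7%), beside 29.1%, 37.2% and 19.98% over the same 3 sets. The search found CNCCTCAG, a motif of the meiotic regulators Stra8 and Meiosin, in 9 of 97 (9.28%) and 5 of 28 (17.9%), beside 8.61%, 9.48% and 7.94%. TGACGTCA, the cyclic AMP response element, was in 3 of 97 (3.09%) and 0 of 28, beside 2.51%, 3.44% and 1.79%. Of the 31 genes on in 1 to 5 treated arrays, CACGTG was in 3 (9.68%) and GCGGGA in 6 (19.4%). CNCCTCAG was in 3 of these 31 (9.68%) and TGACGTCA in 0. The E-box, the E2F core and the cyclic AMP response element each contain a CpG themselves, and a match is not a bound site.

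The minimum level and the flag set the edges of the group. Just inside the level were Ak7 (-3.95), Abo (-3.94) and Tssk3 (-3.93), and just under it Trpd52l3 (-4.05), Pard6b (-4.06) and Olfr204 (-4.09). A further 286 genes with the same flags lay under -4. The flag of 1 MEF array kept out 41 genes. The highest of these in PGCs were Spata22 (2.42), a partner of recombination proteins, through MEF 2, Spo11 (2.01), the enzyme that makes meiotic breaks, through MEF 1, and Nefh (1.86) through OCKS 1.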

How the data were processed

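RNA was labelled with Cy3 and hybridized to 12 one-colour Agilent mouse arrays, 3 per group. The authors deposited the scanner's intensity of each spot, background-subtracted by Feature Extraction 10.7.3.1 and not normalized between arrays, and a table of log2 values in which scale and centring were inferred from the arrays. The deposited log2 columns of PGC 2 and PGC 3 did not match their arrays (r = 0.01 and 0.52) and were left out. The medians of the other 10 columns were -0.10 to 0.26.

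Here log2 intensities were shifted by the 75th percentile of each array (1147.4 to 2924.8, with a median background of 23.0 to 33.5), and the brightest probe stood for a gene. Of 39429 probes, 92 with uneven spots were left out, 25983 were named through RefSeq accessions and 13354 were not. A probe with 10 spots counted as above background when most of its spots were. Differences were fitted with limma 3.58.1 (R 4.3.3) on all 12 arrays without covariates, for genes that every array of 1 or both groups showed above background, at an adjusted p under 0.001 (Benjamini-Hochberg) and 2-fold. The fit was tested on simulated arrays. Tables were made in Python 3.11.15 with numpy 2.4.6 and pandas 2.3.3, and plots with matplotlib 3.10.9.

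The silent genes and the gene lists were chosen with earlier results of these data known. Genes were named by these rules: the 20 highest in PGC, members of the lists and families, those nearest the thresholds, list genes that rose most, and the study's own genes. Some genes that these rules name are not reported here. Alternatives were other scalings, normexp (offset 50, on median spot intensities, since mean intensities were not used here), other flags and levels, the replicate number or slide as a block, the deposited table and leaving out each array. The number of arrays limits the precision. Nothing says that replicates came from separate embryos, so the spread may in part be technical.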

Additional observations from a re-analysis of the deposited data

Results flagged for a closer look

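Of 13354 probes without a gene name, 109 (0.816%) were silent on all 9 MEF arrays and above background on all 3 PGC arrays at -4 or more, the pattern of the silent germ cell genes. They drew attention because no comparison of named genes uses them. Among the named probes 164 (0.631%) had the same pattern. The PGC means of the 109 probes reached 1.41, with a median of -2.64.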

How the results depend on the processing

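The number of silent germ cell genes was 112, and 10 with the weaker flag on the MEF arrays, 398 with no minimum level in PGC and 192 where only control MEFs had to be silent; the other 12 settings gave 77 to 168, and all 112 were in the sets of 168 and 153. Counting any spot of a probe as above background, chosen after seeing the data, gave 110. Leaving out each array gave 110 to 125. Germ cell list genes risen numbered 56 with OS and 52 with OCKS. With normexp and quantile normalization they numbered 32 and 33, and with a filter on both groups 21 and 18. Leaving out each array gave 51 to 56 and 50 to 53. All genes risen with OS numbered 1738, and 4353 with spike-in scaling. Between OCKS and OS, 0 rose and 0 fell, against 3 and 12 at an adjusted p under 0.05, and 0 and 12 with spike-in scaling. Leaving out each array gave 0 to 8 rises, the highest without OS 3, where 33 fell. For OS, OCKS and PGC against MEF, leaving out each array gave 1529 to 1821, 1589 to 1856 and 5261 to 5521 risen genes. The cause of these shifts was not tested, except that settings asking for less or more signal take in more or fewer genes by construction. With the replicate number as a block, 1653, 1706 and 5446 genes rose with OS, OCKS and PGC against MEF, 0 between OCKS and OS, and 54 and 53 listed genes with OS and OCKS. Same-numbered samples correlated from -0.34 to 0.51, not above 0.1 in every pair of any comparison, so that the number does not pair them. Probes below background have no measured level, which limits any difference among the MEF groups.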
